A study of Mus musculus with 16 samples.

Results

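Whole brown adipose tissue of juvenile C57BL6/N mice at 4 weeks of age (4W, 3 arrays) was compared with that of C57BL6/N embryos at embryonic day 18 (E18, 3 arrays), and these 6 of the 16 arrays of the series were chosen by the age in their titles. The other arrays, from pups at postnatal days 4 and 10 (P4, 4 arrays, and P10, 3 arrays) and from mice at 8 weeks (8W, 3 arrays), entered the fit and are given as levels where they bear on a result. The labels name no treatment and no genetic change in any group. They name neither the depot nor the sex, and it is not stated that arrays of the same age are separate animals, so p-values measure the spread between these arrays, which may be technical. Tissue was taken whole, and both ages carried skeletal muscle transcripts together with those of brown fat. In such bulk RNA, fewer cells of a type and less RNA per cell cannot be told apart.

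Total RNA was labelled with Cy3 and hybridised to 1-colour Agilent arrays, on which each probe gives an intensity. Precision is limited by how few arrays there are. A level below is the log2 processed signal minus the 75th percentile of its array, which lay between 653 and 667 intensity units at E18 and between 523 and 613 at 4W. Levels of different genes come from different probes and are not set against each other. At E18 66.9% to 67.1% of probes, and at 4W 47.8% to 53.5%, were well above background. Over 15199 probes of known genes well above background on every array, the median SD was 0.040 (log2) within E18 and 0.076 within 4W. Copies of a probe on 1 array had a median SD of 0.066 to 0.075 at E18 and 0.083 to 0.119 at 4W. That SD is over single spots of replicated probes well above background on that array. It is therefore larger over a different probe set, and before copies are averaged. All E18 arrays lay on slide 1 and all 4W arrays on slide 2. Slide and age therefore cannot be told apart between these arrays alone. A slide term rests on the P4 and P10 arrays, which lay on both slides, with only 1 array of each on slide 2. The slide difference of the genes at P4 correlated at 0.42 with that at P10. Changes are log2 differences, 4W minus E18, with the standard error (SE) of the limma fit, n = 3 arrays at each age. A gene rose or fell when its Benjamini-Hochberg adjusted p was under 0.05.

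Of 16436 genes, 4983 rose (30.3%) and 5632 fell (34.3%), so 64.6% passed in either direction, and the E18 and 4W arrays did not overlap for 77.0%. At least 2-fold changes were seen upward in 8.15% of genes and downward in 14.6%. The median change of all genes was -0.083. Of the calls 46.9% were rises, against 73.4% when arrays were scaled by their median, which moves every change up by 0.40. With a slide term 8595 genes passed, and 7826 of the calls were shared in the same direction.

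Brown fat burns lipid to make heat through uncoupling protein 1 in the inner mitochondrial membrane, and it arises from precursors close to those of skeletal muscle. Muscle fibres build their sarcomeres from families of isoform genes. Before and around birth, embryonic and neonatal myosins, cardiac alpha actin and cardiac-type troponin T are used, and maturing fast fibres replace them with adult fast isoforms.

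Promoter sequences of 4 of these isoform genes are shown first, because Myh4 against Myh3 had the largest shift of the 11 isoform pairs below and both striated actins were measured at both ages. They are the 250 bases before each gene's start, 5′ to 3′ on the gene's own strand, credited to RefSeq on GRCm38.p6. Of the 22 measured fetal and adult fast isoform genes, 19 had an entry. Capitals mark matches, on either strand, to CAGCTG (an E-box of the kind that myogenic basic helix-loop-helix factors bind), to the CArG box of serum response factor and to TATAAA. The strict MEF2 consensus was also searched and had no match in these windows.
Myh3 chr11:67078050-67078299 (+): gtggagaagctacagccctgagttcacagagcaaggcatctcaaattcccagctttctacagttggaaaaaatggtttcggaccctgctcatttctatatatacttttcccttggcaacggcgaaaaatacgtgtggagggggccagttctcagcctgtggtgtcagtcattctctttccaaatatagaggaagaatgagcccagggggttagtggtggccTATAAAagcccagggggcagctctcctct
Myh4 chr11:67237562-67237811 (+): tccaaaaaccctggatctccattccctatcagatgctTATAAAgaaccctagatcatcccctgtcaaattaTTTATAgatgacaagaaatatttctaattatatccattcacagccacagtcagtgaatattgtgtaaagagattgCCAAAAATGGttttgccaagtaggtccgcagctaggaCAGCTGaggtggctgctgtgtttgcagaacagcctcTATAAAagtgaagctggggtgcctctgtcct
Actc1 chr2:114052876-114053125 (-): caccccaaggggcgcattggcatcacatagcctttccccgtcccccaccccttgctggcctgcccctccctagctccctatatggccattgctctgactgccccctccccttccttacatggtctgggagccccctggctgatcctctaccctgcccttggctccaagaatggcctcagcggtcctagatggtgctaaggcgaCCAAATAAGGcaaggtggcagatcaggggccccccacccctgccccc
Acta1 chr8:123894776-123895025 (-): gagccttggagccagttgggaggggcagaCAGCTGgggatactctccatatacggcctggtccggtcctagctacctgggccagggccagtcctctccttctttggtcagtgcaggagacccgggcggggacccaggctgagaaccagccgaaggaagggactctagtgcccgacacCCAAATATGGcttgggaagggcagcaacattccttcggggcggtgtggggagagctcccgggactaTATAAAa
CAGCTG was found in the Myh4 and Acta1 windows and is present in 13% of the 32851 promoters of the table. The CArG box was found in the Myh4, Actc1 and Acta1 windows, against 1.47% of all promoters. TATAAA matched 3 times in the Myh4 window and once each in those of Myh3 and Acta1, and 12.4% of promoters hold it. A MEF2 match is in 0.508% of promoters. These are matches of letters and are not evidence of binding.

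Fetal muscle isoforms fell and adult fast isoforms rose between E18 and 4W. In the fetal list 5 of 6 members given here fell and 1 rose (median change -3.63, or -2.73 with the 3 genes at bounds set to them). In the adult fast list 12 of 16 rose, none fell and 4 were not called (median 1.20) (with 0 members in the falling direction at an unadjusted limma p under 0.05, as for every list below of which no member rose or none fell). Both lists, like all lists here, were chosen with results of these data known. The counts of every list stand beside the 30.3% of all genes that rose and the 34.3% that fell.

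Myh3, the embryonic myosin heavy chain, lay at 3.36, 3.34 and 3.30 on the E18 arrays and at -5.72, -5.36 and -5.64 on the 4W arrays. The embryonic arrays were all high and the 4W arrays were all not well above background, so the fall is a bound of at least 151-fold (adjusted p = 7.99e-13). Bounds are set against the lowest signal well above background on each dim array, and the measured change was -8.90 ± 0.21. Actc1, cardiac alpha actin, was at 4.89, 4.89 and 4.92 at E18 and at -1.29, -1.23 and -1.09 at 4W. It was measurable at both ages and fell by 6.10 ± 0.13 on the log2 scale (adjusted p = 4.00e-13). Tnnt2, cardiac troponin T, went from 0.04, -0.00 and -0.08 to -5.54, -5.43 and -6.16, with no overlap and no 4W array well above background. It was at least 14.9-fold lower at 4W (adjusted p = 0.000354).

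Myl4, the embryonic and atrial myosin light chain, had levels of 3.73, 3.75 and 3.74 at E18 and 2.17, 2.16 and 2.22 at 4W. That drop of 1.56 ± 0.06 was the smallest fall among the members measured at both ages. At 8W Myl4 was at 2.20 ± 0.09 (SD, n = 3). Chrng, the fetal gamma subunit of the muscle acetylcholine receptor, was at -3.17, -3.56 and -3.07 at E18 and not well above background on any 4W array, at least 1.56-fold lower. The call on Chrng was lost under quantile normalization, in the deposited series matrix and with normexp background correction, where the change was -0.23.

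Myh8, the neonatal myosin, went the other way. Its levels were 5.37, 5.38 and 5.35 at E18 and 6.28, 6.24 and 6.39 at 4W, and it rose by 0.94 ± 0.18 (adjusted p = 0.000517). The other probe of Myh8 gave -0.55 ± 0.28 and did not pass, and the mean of both probes gave 0.19 with no call. The direction of Myh8 therefore depends on the probe. At P4 it lay at 0.93 and at P10 at 5.36, while at 8W no array was well above background.

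**Figure D1:**
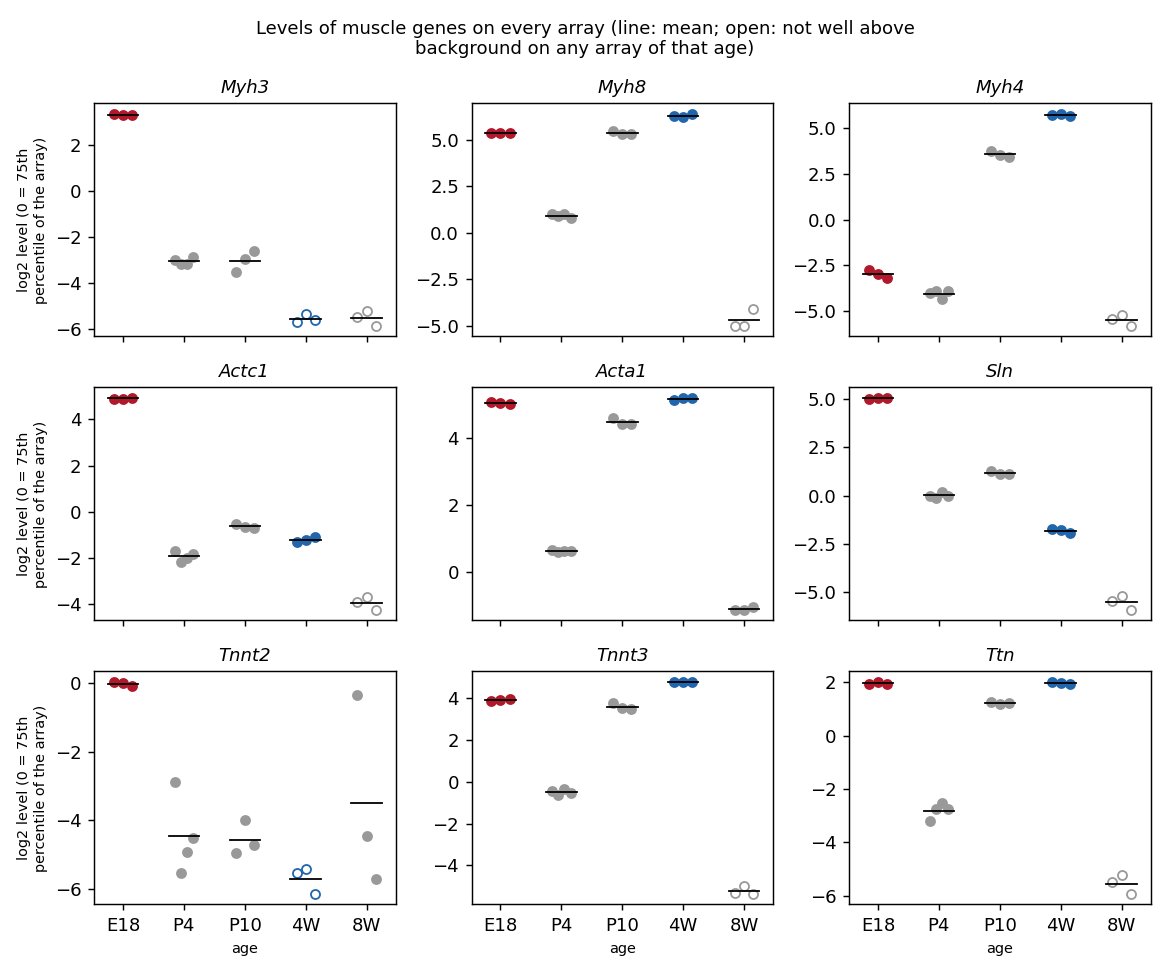
Log2 levels (vertical axis, relative to the 75th percentile of each array) of 9 muscle genes on every array, by age (horizontal axis), with lines at the age means and open points where no array of the age was well above background. Myh3 and Actc1 are high at E18 alone, Myh4 reaches 5.76 at 4W, and Ttn is at 2.01 or below at both E18 and 4W, low at P4 and not well above background at 8W.

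Myh4 rose most among the adult fast genes. Myh4, the fast type 2B myosin heavy chain, was at -2.75, -2.96 and -3.18 at E18 and at 5.69, 5.76 and 5.63 at 4W. All 6 arrays were well above background and the groups lay far apart, with a rise of 8.66 ± 0.16 (404-fold, adjusted p = 8.42e-14). Myh1, the type 2X myosin, went from -1.24, -1.32 and -1.26 to 2.82, 2.55 and 2.92, a rise of 4.04 ± 0.13. Myh2, the type 2A myosin, went from 0.02, -0.05 and -0.10 to 3.58, 3.67 and 3.41, a rise of 3.59 ± 0.12. The 4W arrays were the high ones for all 3 adult myosins and no array of one age overlapped the other. Their genes lie with Myh3 and Myh8 on chromosome 11, and the 3 adult genes rose while Myh3 fell.

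Of the adult fast genes outside the myosin cluster Pvalb rose most. Pvalb, the calcium buffer parvalbumin of fast fibres, rose from 0.35, 0.36 and 0.33 to 5.20, 4.79 and 5.28, by 4.74 ± 0.14, and its other probe rose by 6.49. Actn3, the fast-fibre alpha actinin, rose by 3.17 ± 0.26, and Mybpc2, fast myosin binding protein C, by 2.68 ± 0.13. The calcium pump Atp2a1 rose by 1.85 ± 0.13 and the calcium release channel Ryr1 by 1.52 ± 0.29. Casq1, the fast-fibre calcium store protein, rose by 0.89 ± 0.17. For Ryr1 and Casq1 the call was lost when the arrays of each age were averaged to 1 sample.

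The adult fast thin filament genes changed by less than 1 on this scale. Tnnt3, fast troponin T, went from 3.83, 3.88 and 3.93 to 4.74, 4.76 and 4.74, a rise of 0.87 ± 0.11, and Tnni2, fast troponin I, rose by 0.54 ± 0.07. Acta1, skeletal alpha actin, was at 5.08, 5.06 and 5.02 at E18 and at 5.14, 5.20 and 5.21 at 4W. Its arrays did not overlap but lay within 0.2 of each other, and the change of 0.13 ± 0.05 (adjusted p = 0.038) was lost with a slide term (0.02) and turned to -0.026 in the deposited series matrix. It was also lost on leaving out any E18 array or 4W replicate 2 or 3, with changes of 0.12 to 0.15. Tnnc2, fast troponin C, changed by 0.17 ± 0.09, the fast light chains Myl1 and Mylpf by 0.06 ± 0.08 and -0.39 ± 0.30, and Scn4a, the adult sodium channel, by -0.04 ± 0.13, and none of these 4 passed. Myl1 was at 6.32 at 4W and still at 5.24 at 8W, and Scn4a was at -0.88 and -1.13. Tnnc2 went from 6.45 at 4W to -1.10 at 8W. Whether the Myl1 and Scn4a probes report muscle alone was not tested.

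**Figure D2:**
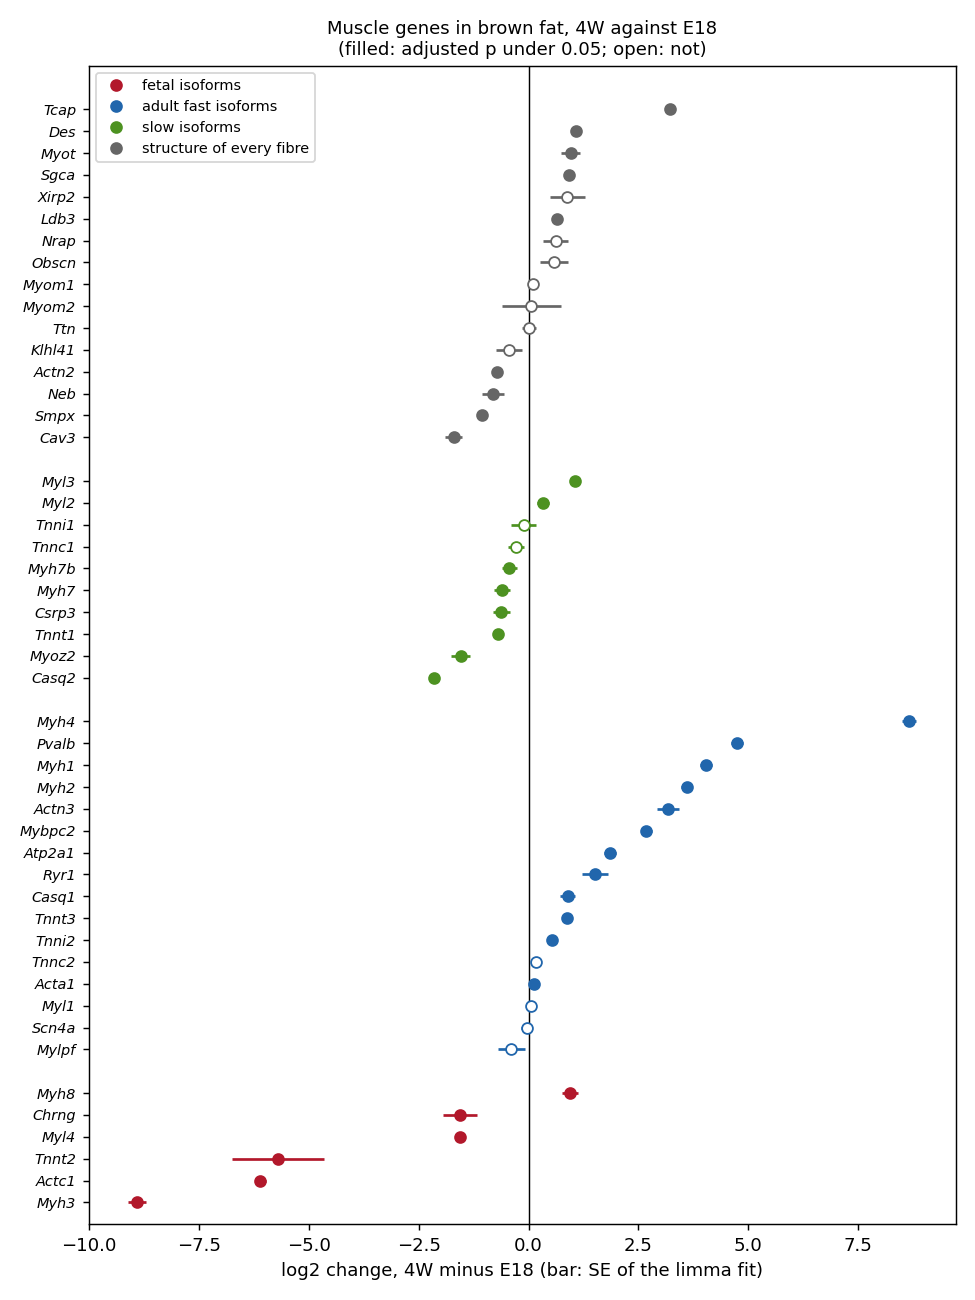
Log2 change from E18 to 4W (horizontal axis, bars are the SE of the limma fit) of each measured member of 4 muscle lists (vertical axis), filled where the gene passed the test. Myh3, Actc1 and Tnnt2 lie at -5.70 or below, Myh4 lies at 8.66, and the structural genes spread on both sides of 0 from -1.70 for Cav3 to 3.23 for Tcap.

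Adult and fetal partners were then set against each other on the same array, so that the scaling of the array drops out. For each of 11 pairs the log2 level of the adult gene minus that of its fetal or slow partner was taken on every array. All 11 differences were larger at 4W than at E18, without overlap between the arrays. Lack of overlap was common in this comparison, at 77.0% of all genes taken singly. The exact two-sided permutation test of 3 against 3 arrays gave p = 0.10 for each, the smallest it allows. Several pairs share a gene, so they are not independent.

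The Myh4 to Myh3 difference rose from -6.11, -6.30 and -6.48 to 11.41, 11.12 and 11.26, by 17.56, or by 15.90 with Myh3 at its bound. Against Myh8, whose probes disagree, Myh4 gained 7.72, Myh1 3.10 and Myh2 2.65. The actin pair Acta1 to Actc1 moved from 0.19, 0.17 and 0.10 to 6.43, 6.43 and 6.30, a gain of 6.24, made by the fall of Actc1 at nearly level Acta1. Tnnt3 gained 6.56 over Tnnt2, or 4.76 with Tnnt2 at its bound. The shifts were small for Myl1 over Myl4 (1.62), Tnni2 over Tnni1 (0.65) and Tnnc2 over Tnnc1 (0.47). With a slide term Tnni2 and Tnni1 changed by 0.49 and 0.44, so little of that gain was left. Tnnc2 and Tnnc1 then changed by 0.04 and -0.17, and Myl1 and Myl4 by -0.02 and -1.63.

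Slow-fibre isoforms moved in both directions. Of 10 members 2 rose, 6 fell and 2 were not called (median -0.52). Casq2, the calcium store protein of slow fibres and heart, went from 0.67, 0.68 and 0.72 to -1.44, -1.66 and -1.28, a fall with no overlap, by 2.15 ± 0.10 on the log2 scale. Myoz2, a slow-fibre protein of the Z-disc, changed by -1.55 ± 0.21 and Tnnt1, slow troponin T, by -0.69 ± 0.07. Csrp3, a Z-disc stretch protein, changed by -0.62 ± 0.20, Myh7, the slow myosin, by -0.61 ± 0.17 and Myh7b by -0.43 ± 0.17. Myl3, the slow and ventricular light chain, rose by 1.06 ± 0.08, and Myl2 was 0.33 ± 0.13 higher. Tnni1 changed by -0.11 ± 0.28 and Tnnc1 by -0.29 ± 0.18, and neither passed. With array median scaling 2 members of the slow list rose and 2 fell, and a slide term removed the calls on Myh7, Myh7b and Myl2. Leaving out any of the 6 arrays ended the call on Myl2 (0.32 to 0.35), any E18 array or 4W replicate 2 that on Myh7b (-0.44 to -0.36), and 4W replicate 2 that on Csrp3 (-0.58).

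The structural genes used by every fibre moved in both directions. Of 16 members 5 rose, 4 fell and 7 were not called (median 0.34). The share of rises was near the 30.3% of all genes, and that of falls was below their 34.3%. The rises numbered 8 with quantile normalization, normexp background correction, the deposited series matrix or only the E18 and 4W arrays, and 9, against 2 falls, with array median scaling. Ttn, the giant spring protein titin, was at 1.93, 2.01 and 1.93 at E18 and at 1.99, 1.98 and 1.92 at 4W. The arrays overlapped, and the change was 0.01 ± 0.16 (adjusted p = 0.968). Tcap, the titin cap, rose from 2.02, 2.08 and 2.00 to 5.32, 5.21 and 5.25, by 3.23 ± 0.10. Cav3, muscle caveolin, changed by -1.70 ± 0.19. Smpx, a small muscle protein, changed by -1.07 ± 0.10, and Des, desmin, rose by 1.07 ± 0.10.

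The mean level of this list, taken relative to its members' means over the E18 and 4W arrays, ranged from -0.19 to -0.085 at E18 and from 0.087 to 0.19 at 4W. It was between -3.22 and -2.86 at P4, between -0.61 and -0.52 at P10 and between -3.88 and -3.68 at 8W. The E18 and 4W arrays lay close together, and those of P4 and 8W well below them. The part of muscle RNA in the fat results was not tested.

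Calcium and synapse genes moved in both directions. Of 11 members of the excitation list 3 rose, 4 fell and 4 were not called (median 0.18, or -0.23 with the mean of a gene's probes). Both shares were near the 30.3% of all genes that rose and the 34.3% that fell. Sln, sarcolipin, the small inhibitor of the calcium pump, was at 5.01, 5.07 and 5.05 at E18 and at -1.72, -1.78 and -1.93 at 4W. All arrays were well above background and the ages lay far apart, with a fall of 6.86 ± 0.14 on the log2 scale (116-fold, adjusted p = 2.04e-13). Chrnd, the delta subunit of the acetylcholine receptor, was at least 4.39-fold lower at 4W, and Chrna1, its alpha subunit, changed by -1.31 ± 0.24. Cacna1s, the voltage sensor of the fibre membrane, rose by 1.28 ± 0.26 and Stac3, its partner, by 1.00 ± 0.10.

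Muscle energy genes rose in 8 of 10 cases, with no fall (median 1.07). Fbp2, muscle fructose bisphosphatase, rose by 1.58 ± 0.12 and Ckmt2, mitochondrial creatine kinase of muscle, by 1.39 ± 0.25. Ckm, cytosolic creatine kinase, went from 1.25, 1.70 and 1.74 to 2.64, 2.73 and 2.71, a rise of 1.13 ± 0.18. Mb, myoglobin, rose by 1.01 ± 0.12. Ampd1 and Eno3 did not pass, with changes of 0.09 ± 0.30 and -0.05 ± 0.07.

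Regulators of muscle formation fell in 7 of 10 cases, 1 rose and 2 were not called (median -0.92). Myog, myogenin, the differentiation factor, was at -2.23, -2.15 and -2.18 at E18 and not well above background on any 4W array, at least 3.30-fold lower. Mymx, myomixer, which drives fusion of myoblasts, was at least 4.28-fold lower, and its partner Mymk changed by -0.90 ± 0.16. Myod1, counted among the falls by the test, was at -4.25, -4.07 and -4.0 at E18 and not well above background on any 4W array, and no bound could be set on its fall. Pax7, the marker of muscle stem cells, changed by 0.38 ± 0.63 and did not pass. With a slide term 3 members of this list fell, and the call on Myod1 was among those lost.

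Most brown fat identity genes rose. In the thermogenic list 16 of 24 members rose, 9 of them at least 2-fold, 2 fell and 6 were not called (median 0.40). Ucp1, the uncoupling protein, was at 9.10, 9.08 and 9.04 at E18 and at 9.49, 9.61 and 9.73 at 4W. Every 4W array lay above every E18 array, and the rise was 0.54 ± 0.16 (1.45-fold, adjusted p = 0.0102). With a slide term the rise was 0.94 ± 0.17. At the other ages Ucp1 was at 9.75 (P4), 9.58 (P10) and 8.99 (8W). Cidea, a lipid droplet protein of brown adipocytes, rose from 9.79, 9.73 and 9.76 to 10.11, 10.05 and 10.12, by 0.34 ± 0.10. Both calls were lost when the E18 arrays were averaged to 1 sample, and that on Cidea also with normexp background correction.

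Prdm16, a transcriptional regulator of brown identity, rose by 0.34 ± 0.06. Ppargc1a, a coactivator of mitochondrial genes, was at 3.22, 3.27 and 3.24 at E18 and at 3.37, 3.14 and 3.30 at 4W, with overlap and a change of 0.03 ± 0.06 (adjusted p = 0.697). Cox7a1 and Cox8b, the respiratory subunits of brown fat and muscle, changed by 0.01 ± 0.08 and 0.10 ± 0.15 and did not pass. For Cox8b the E18 and 4W arrays did not overlap (SD 0.028 and 0.019), while the SD at P4 was 0.30. Ppargc1a, Cox7a1 and Cox8b depend on scaling: with array median scaling they passed as rises of 0.43, 0.41 and 0.50. In the deposited series matrix Ppargc1a passed at -0.13 and Cox7a1 at -0.21, and with a slide term Cox8b passed at 0.51.

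Receptor and lipid supply genes of the list rose further. Adrb3, the beta 3 adrenergic receptor of adipocytes, went from 2.81, 2.89 and 2.85 to 5.73, 5.54 and 5.72, a rise of 2.81 ± 0.10 (7.02-fold). Dio2, the deiodinase that activates thyroid hormone inside the cell, went from 0.94, 1.01 and 0.94 to 2.06, 2.01 and 1.92, a rise of 1.03 ± 0.06. It had been at 4.17 at P4 and was at -1.77 at 8W. Slc27a2, a fatty acid transporter and acyl-CoA synthetase, rose from 1.26, 1.29 and 1.28 to 5.35, 5.45 and 5.46, by 4.15 ± 0.06. The fatty acid elongases Elovl6 and Elovl3 rose by 3.26 ± 0.13 and 1.60 ± 0.12. Of the 2 members that fell, the transcription factors Ebf2 and Lhx8 changed by -0.99 ± 0.07 and -1.12 ± 0.07.

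Receptors and effectors of sympathetic and thyroid signals rose in 13 of 16 cases, with no fall (median 0.83). Adcy3, an adenylyl cyclase, went from -3.18, -3.67 and -4.13 to 0.93, 0.88 and 0.83, a rise of 4.54 ± 0.18. The orphan nuclear receptors Nr1d1 and Nr4a1 rose by 3.72 ± 0.08 and 2.07 ± 0.07, and the first of them is also a clock gene. Thrb, a thyroid hormone receptor, rose by 1.62 ± 0.07, while Thra was at 5.11, 5.14 and 5.15 at E18 and at 5.12, 5.14 and 5.13 at 4W. The Thra arrays overlapped and no change was called.

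**Figure D3:**
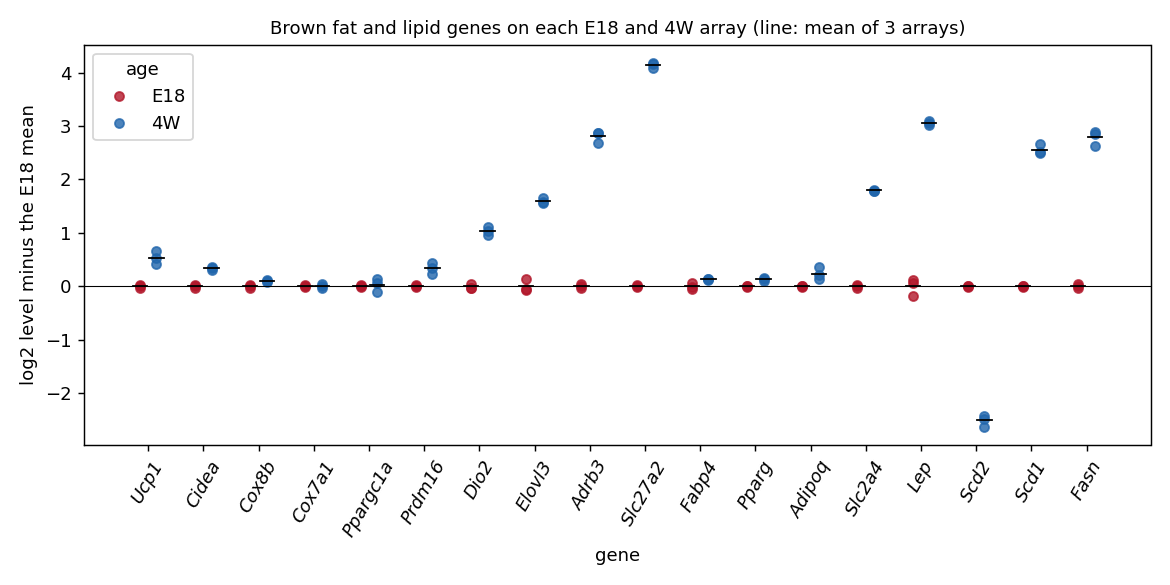
Log2 level minus the E18 mean (vertical axis) of 18 brown fat and lipid genes (horizontal axis) on the 3 E18 and 3 4W arrays, with lines at the means. Cox7a1 and Ppargc1a stay at 0, Ucp1 lies 0.54 above it, Slc27a2 4.15 above it, and Scd2 at -2.51.

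General adipocyte genes rose in 21 of 25 cases, 2 fell and 2 were not called (median 0.80). Lep, the satiety hormone leptin, was at -3.25, -2.95 and -3.0 at E18 and at 0.03, -0.04 and -0.00 at 4W. That is a rise of 3.06 ± 0.10 with no overlap. Dgat2, which makes triglyceride, rose by 2.40 ± 0.07. Slc2a4, the insulin-responsive glucose transporter, went from 5.80, 5.83 and 5.84 to 7.62, 7.62 and 7.63, a rise of 1.80 ± 0.06. The regulator Pparg and the hormone gene Adipoq rose by only 0.13 ± 0.05 and 0.24 ± 0.08, and both calls were lost with a slide term. Leaving out 4W replicate 3 ended the call on Adipoq (0.17), and leaving out E18 replicate 1 or 2 or 4W replicate 1 or 3 that on Pparg (0.12 to 0.14). Fabp4, the fatty acid carrier, changed by 0.13 ± 0.15 and did not pass, but did with a slide term (0.54). Its E18 and 4W arrays did not overlap (SD 0.052 and 0.017), while its SD at P4 was 0.31. Retn, resistin, fell from 6.88, 6.86 and 6.77 to 5.72, 5.69 and 5.62.

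Lipid synthesis rose in 17 of 21 members, 3 fell and 1 was not called (median 1.11). Fasn, fatty acid synthase, went from 1.92, 1.95 and 2.00 to 4.57, 4.84 and 4.81, a rise of 2.79 ± 0.08 (6.91-fold). Pnpla3, a lipase of lipid droplets, rose by 2.70 ± 0.12. The desaturases moved in opposite directions. Scd1 rose from 5.73, 5.72 and 5.70 to 8.22, 8.38 and 8.21, by 2.55 ± 0.06, and Scd2 went from 5.95, 5.96 and 5.95 to 3.47, 3.32 and 3.53, a fall of 2.51 ± 0.05. Fads1 and Fads2, which make polyunsaturated fatty acids, were the other members that fell. Fads1 changed by -1.88 ± 0.08 and Fads2 was at least 1.60-fold lower.

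Most fatty acid oxidation genes changed by less than 2-fold. Of 23 members 12 rose, 3 of them at least 2-fold, 3 fell and 8 were not called (median 0.21). Pdk4, a brake on pyruvate use, rose by 1.30 ± 0.07 and Acsl5, an acyl-CoA synthetase, by 1.28 ± 0.07. Ucp3, a relative of Ucp1 in brown fat and muscle, rose by 1.12 ± 0.05, and its other probe by 4.37. The core enzyme genes Acadm and Acadl changed by 0.02 ± 0.07 and -0.05 ± 0.06.

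Most respiratory chain genes were not called. Of 49 members 5 rose, 16 fell and 28 were not called (median -0.067), and the share of falls was near the 34.3% of all genes. Atp5g1, a subunit of the ATP synthase ring that limits its assembly in brown fat, went from 5.81, 5.82 and 5.77 to 4.65, 4.67 and 4.69, a fall of 1.13 ± 0.06. The ATP synthase genes Atp5c1 and Atp5o changed by -0.94 ± 0.09 and -0.55 ± 0.13, and all other members lay within -0.37 and 0.27. The median of the list was above 0 with quantile normalization (0.052) and with array median scaling (0.34), and under the latter 21 members rose and 2 fell. In the tricarboxylic acid cycle list 6 of 18 members rose, 3 fell and 9 were not called (median 0.10). Its share of rises was near the 30.3% of all genes, and that of falls was below their 34.3%. Dlat, of pyruvate dehydrogenase, rose by 1.00 ± 0.08.

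Genes of the creatine cycle and other routes of heat production rose in 5 of 8 cases, 2 fell and 1 was not called (median 1.51). Alpl, an alkaline phosphatase, went from -2.28, -2.04 and -2.0 to 0.88, 0.96 and 0.75, a rise of 2.97 ± 0.12. Slc6a8, the creatine transporter, rose by 2.00 ± 0.07 and Ckb, brain-type creatine kinase, by 1.72 ± 0.06. The creatine synthesis enzymes Gatm and Gamt changed by -2.23 ± 0.11 and -1.0 ± 0.07.

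Precursor genes did not move together. Of 18 members of the preadipocyte list 7 rose, 8 fell and 3 were not called (median -0.12). Pi16 and Ly6a, surface markers of stromal progenitors, rose by 2.07 ± 0.10 and 1.96 ± 0.07. Dlk1, the inhibitor of adipocyte differentiation, was at 7.70, 7.74 and 7.75 at E18 and at 1.91, 1.97 and 2.07 at 4W. It remained measurable and fell by 5.75 ± 0.08 on the log2 scale (53.9-fold). The median of this list was above 0 with array median scaling (0.28), normexp background correction (0.062) and a slide term (0.22).

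Fetal growth genes were among the largest falls. In the growth and imprinted list 15 of 19 members fell, 3 rose and 1 was not called (median -1.28). Mest, an imprinted gene of the hydrolase family, was at 5.96, 6.0 and 6.0 at E18 and at -1.81, -1.77 and -1.81 at 4W. All 6 arrays were well above background, and the fall was 7.79 ± 0.05 (221-fold, adjusted p = 9.45e-18). Igf2, the fetal growth factor, went from 3.01, 2.96 and 2.95 to -3.26, -2.44 and -3.19, a fall of 5.93 ± 0.23, with 2 4W arrays well above background. Plagl1, an imprinted zinc finger regulator, went from 6.52, 6.51 and 6.56 to 0.84, 0.94 and 0.83, a fall of 5.66 ± 0.06. The RNA-binding protein gene Igf2bp3 was at least 7.09-fold lower at 4W. Nnat, neuronatin, also imprinted, rose by 3.12 ± 0.06, and Ghr, the growth hormone receptor, rose from 2.78, 2.76 and 2.70 to 4.94, 4.69 and 4.88. Nnat was higher still at P4, at 5.55.

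Every measured cell division gene fell, 32 of 32 (median -3.89, or -3.34 with the 5 genes at bounds set to them). Mki67, the proliferation marker, was at 3.72, 3.80 and 3.76 at E18 and at -1.24, -1.32 and -1.32 at 4W, a fall of 5.05 ± 0.08. Cdk1, the mitotic kinase, changed by -5.35 ± 0.18, with 1 4W array well above background. Top2a, the topoisomerase of dividing cells, was at least 21.7-fold lower and Kif23, a kinesin of cytokinesis, at least 12.7-fold lower. Pcna, used in DNA repair as well, moved least, by -0.94 ± 0.05.

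Matrix genes fell in 27 of 31 cases, 1 rose and 3 were not called (median -1.38). Fbn2, the fibrillin of embryonic microfibrils, went from 1.48, 1.52 and 1.61 to -3.66, -3.53 and -3.62, a fall of 5.14 ± 0.11. Its level on 4W replicate 1 lay below the lowest signal well above background on that array (-3.62). Mfap4, another microfibril protein, went from 3.08, 3.09 and 3.08 to -1.32, -1.34 and -1.32. The arrays of each age were nearly identical and lay 4.41 apart. Col5a2, of fibrillar collagen, changed by -2.43 ± 0.12 and Col1a1 by -1.90 ± 0.06, while Dcn, decorin, changed by 0.06 ± 0.07. Loxl1, a cross-linking enzyme, rose by 0.70 ± 0.06. Of cartilage and bone markers 5 of 13 listed were measured, none rose and 2 fell, and of skin markers 7 of 12 were measured, none rose and 1 fell. With a slide term no cartilage or bone member fell, and 2 skin members rose and 1 fell. With array median scaling 3 skin members rose and none fell. The mean relative level of the cartilage and bone list was 0.61 on 4W replicate 2, against -0.77 and -0.74 on replicates 1 and 3.

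Immune genes moved in both directions. Neutrophil and precursor genes fell in 13 of 14 cases, with 1 not passing (median -3.17, or -2.42 with 7 genes at bounds). S100a9 and S100a8, the calcium-binding pair of neutrophils, were well above background on all arrays of both ages. S100a9 went from 5.49, 5.50 and 5.51 to -1.09, -1.07 and -0.96, a fall of 6.54 ± 0.07 (93.1-fold), and S100a8 fell by 6.50 ± 0.07. Ltf, lactoferrin of their granules, was at least 19.7-fold lower at 4W. Antigen presentation moved the other way, with 15 of 17 members up, none down and 2 not passing (median 1.87). H2-Ab1, a class II chain, rose from -0.97, -1.06 and -1.0 to 5.31, 5.32 and 5.37, by 6.34 ± 0.07 (81.3-fold). H2-Aa rose by 6.16 ± 0.07 and Cd74, the invariant chain, by 5.98 ± 0.07.

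Macrophage genes were mixed, with 7 of 15 up, 5 down and 3 not passing (median 0.19). C1qa, of complement, rose by 1.04 ± 0.08, and Cx3cr1 and Lyve1, of resident macrophages, changed by -1.67 ± 0.11 and -1.47 ± 0.08. Of 20 lymphocyte genes 8 rose, 4 fell and 8 were not called (median 0.25). The T cell gene Cd3d was at least 5.70-fold higher at 4W and Ccr7 rose by 1.28 ± 0.11. In the interferon list 6 of 20 rose, 8 fell and 6 were not called (median -0.10). The share of rises was near the 30.3% of all genes. With a slide term 4 of them rose and 10 fell. Ifi44 and Rtp4 changed by -2.08 ± 0.12 and -1.49 ± 0.06. Isg15, a ubiquitin-like protein, changed by -1.37 ± 0.07.

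Red cell genes fell in 14 of 19 cases, 2 rose and 3 were not called (median -1.51, or -0.96 with 6 genes at bounds). Hbb-y, the embryonic beta-like globin, was at 0.86, 0.88 and 0.84 at E18 and not well above background on any 4W array, at least 27.3-fold lower. Hba-x, its embryonic alpha-like partner, was at least 5.03-fold lower. Slc4a1, the anion exchanger of the red cell membrane, changed by -3.53 ± 0.12. The adult globins fell too, Hba-a1 by 0.99 ± 0.08 and Hbb-b1 by 1.57 ± 0.09, and globin genes are close copies whose probes may share signal. Whether the blood content of the samples moved the other results was not tested.

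**Figure D4:**
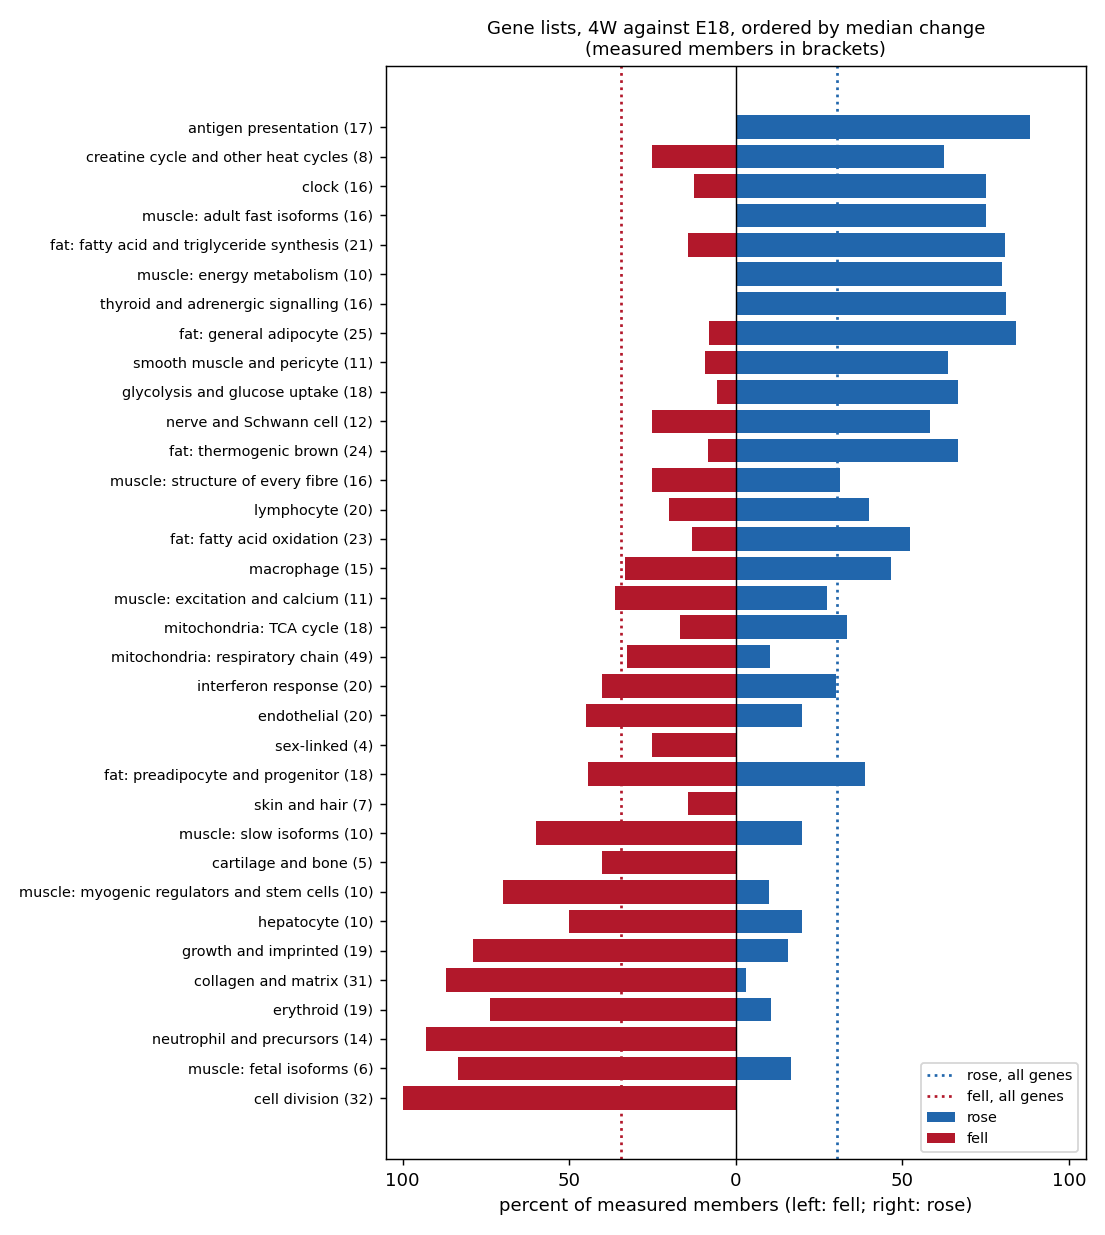
Percent of the measured members of each gene list that rose (right) or fell (left) from E18 to 4W, ordered by the list's median change, with dotted lines at the 30.3% and 34.3% of all genes. Cell division, neutrophil and fetal isoform genes lie at the falling end and antigen presentation at the rising end. Array median scaling turns the sign of the respiratory chain, preadipocyte, skin, interferon, endothelial and sex-linked medians, which lie between -0.35 (skin) and -0.067 (respiratory chain).

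Across all genes, the 6 with the largest rises whose arrays did not overlap were Retnla, Myh4, Cyp2b10, Vat1l, Cxcl14 and Fabp3. Retnla, a secreted resistin-like protein, was not well above background on any E18 array and at 3.82, 3.72 and 3.80 at 4W, at least 354-fold higher. Cyp2b10, a cytochrome P450 that oxidises drugs and lipids, went from -2.71, -2.94 and -2.85 to 4.91, 4.90 and 4.96, a rise of 7.76 ± 0.38. Vat1l was at least 128-fold higher. Cxcl14, a chemokine, rose by 7.25 ± 0.39 and was well above background on 2 E18 arrays. Fabp3, a fatty acid binding protein of muscle and brown fat, rose from 1.76, 1.82 and 1.76 to 8.70, 8.92 and 8.69, by 6.99 ± 0.08. At 8W Fabp3 was at 8.5. Which cells of the tissue made its rise was not tested.

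Of the 6 largest falls, Myh3 and Mest are given above. Stfa1, Cstdc5 and Stfa2l1 belong to the stefin A family, near-identical cysteine protease inhibitors in a cluster on chromosome 16 whose probes can share signal. They were at least 204-fold, 278-fold and 79.3-fold lower at 4W. Agtr2, the angiotensin receptor of fetal tissues, was at 2.96, 2.93 and 2.96 at E18 and at -5.66, -5.67 and -6.37 at 4W, not well above background there and at least 116-fold lower.

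**Figure D5:**
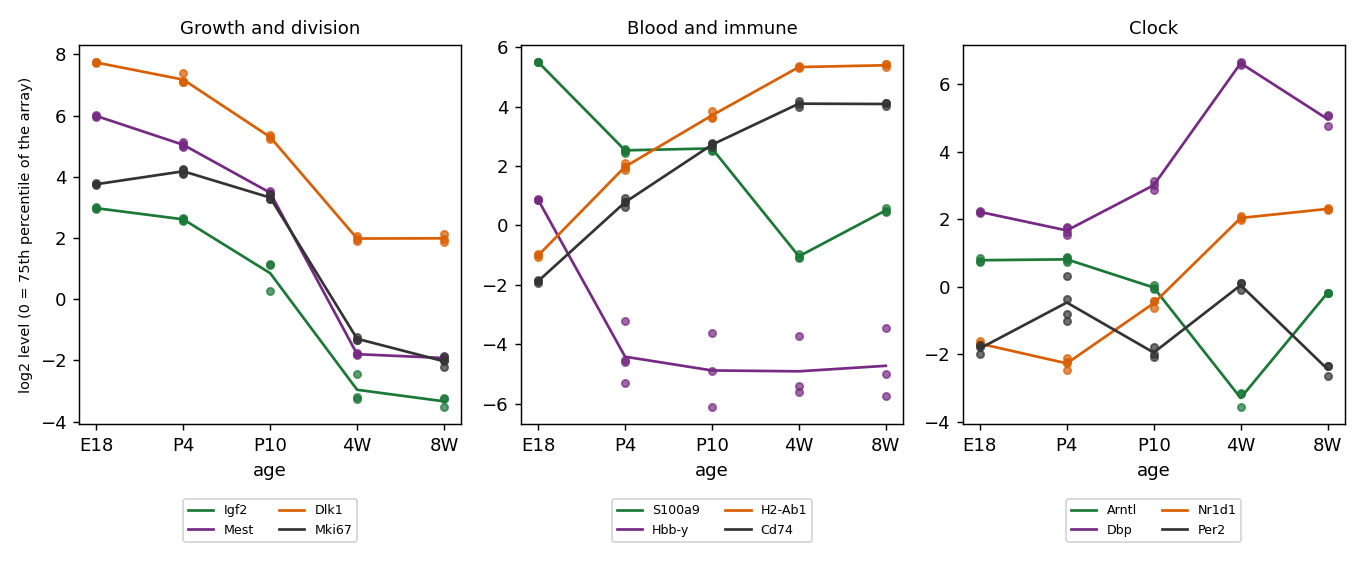
Log2 levels (vertical axis, relative to the 75th percentile of each array) by age (horizontal axis) of growth and division, blood and immune, and clock genes, with a point per array and lines through the age means. Mest goes from 6.0 at E18 to -1.92 at 8W, H2-Ab1 from -1.01 to 5.39, and Arntl is lower at 4W than at any other age.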

How the data were processed

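Total RNA of 16 whole brown fat samples was measured on 1-colour Agilent arrays. The intensity values are the deposited processed signals, background subtracted and spatially detrended per array per the file headers, which name Feature Extraction 11.5.1.1, while the submitters' processing notes name 11.0.1.1. As tested on the files, the log2 values of the deposited series matrix are these signals after quantile normalization, used as an alternative.

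Of 62976 spots 3671 controls were left out, and 2720 marked spot values were set to missing. No other spot was saturated. Spots of a probe were averaged (55681 probes), and RefSeq accessions named 27656 of them, while 28025 unnamed probes entered no result. Log2 signals minus the array's 75th percentile were used. Probes well above background on at least 3 arrays were kept, and each of 16436 genes was measured by its brightest kept probe. Of 4202 genes with several probes, 197 had probes past the test in both directions. All arrays entered 1 fit in limma 3.58.1 (R 4.3.3) on age alone, tested on simulated data, two-sided, with Benjamini-Hochberg adjustment.

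The comparison, the members, the gene lists and the tests were chosen with earlier results of these data known. A gene of the fetal list and its pair are not reported here and entered no list count or median. Named are a panel, all isoform genes, the 3 members of every other list with the largest changes and no overlap, the 6 largest rises and falls, and further list members with their values, some chosen after these were seen. Alternatives were other scalings, background corrections, filters and probe rules, slide and replicate blocks, other array sets, a trended robust prior and array weights. Averaging the arrays of an age was added after seeing the data. The normexp correction (offset 50) used median pixels, as mean pixels were not used here. Same-numbered arrays correlated at 0.0125, 0.083 and 0.0058, so the numbers do not pair them.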

Additional observations from a re-analysis of the deposited data

How the results depend on the processing

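Over 23 alternative settings, 109 of the 141 named genes kept their direction and their side of the threshold wherever they were measured. Leaving out 1 array gave 9632 to 10067 genes past the test, and the others gave 7739 to 12033, except averaging each age to 1 sample (6041: 3126 up, 2915 down). The replicate block, on numbers that do not pair the arrays, gave 10449. With array median scaling 2588 genes fell. Members that fell there were 2 of the slow isoforms and 2 of the respiratory chain, and 9 structural genes rose. Medians turned for the preadipocyte (0.28), respiratory chain (0.34), skin (0.052), interferon (0.30), endothelial (0.30) and sex-linked lists (0.30), as did Krt10 (0.0077). Quantile normalization gave 8 structural rises, 8 respiratory chain falls and a respiratory chain median of 0.052. The series matrix gave 8 structural rises and Acta1 at -0.026. Normexp gave 8 structural rises, 4 falls among muscle regulators and a preadipocyte median of 0.062. With the slide block 3 muscle regulators and 10 respiratory chain genes fell, and the preadipocyte, skin and sex-linked medians were 0.22, 0.37 and 0.098. Using only E18 and 4W arrays gave 8 structural rises. The mean of a gene's probes gave an excitation median of -0.23.

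Requiring probes above background on all arrays removes genes dim at any age. Then 3654 genes fell, with 1 fetal, 1 slow, 2 regulator, 18 cell division, 4 neutrophil and 0 excitation members falling, of the few left to test, 3 adult fast and 5 energy members rising, and 1 isoform pair left. Medians turned for the slow (0.19), preadipocyte (0.50), skin (0.080) and hepatocyte (0.51) lists. With the E18 arrays averaged 3 slow and 6 respiratory chain members fell. With both ages averaged 3 fetal, 3 slow, 2 regulator and 4 respiratory chain members fell, and 3 structural members rose. Beyond the scalings, filters and averages themselves, the cause was not tested. Signal over background limits genes dim at 4W to bounds.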

Other observations

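Clock genes differed between the ages, and the labels used here give no time of day. Of 16 members 12 rose, 2 fell and 2 were not called (median 1.48). Dbp, an output of the clock, was at 2.19, 2.19 and 2.25 at E18 and at 6.56, 6.66 and 6.63 at 4W, a rise of 4.41 ± 0.09. Ciart, a clock repressor, was at least 20.6-fold higher at 4W. Arntl, the core activator also called Bmal1, went from 0.74, 0.76 and 0.85 to -3.15, -3.57 and -3.18, a fall of 4.08 ± 0.09, and was back at -0.19 at 8W. Per2 rose by 1.87 ± 0.25 and Clock itself changed by 0.13 ± 0.08.

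Glycolysis genes rose in 12 of 18 cases, 1 fell and 5 were not called (median 0.45). Pfkfb3, which makes the activator of phosphofructokinase, rose by 2.68 ± 0.05. Pfkm and Pfkl, subunits of phosphofructokinase, rose by 1.38 ± 0.06 and 1.23 ± 0.08, and Gapdh changed by 0.07 ± 0.08. Smooth muscle and pericyte genes rose in 7 of 11 cases, 1 fell and 3 were not called (median 0.57). Cnn1, calponin of contractile smooth muscle, rose by 2.67 ± 0.09 and Rgs5, a pericyte marker, by 2.59 ± 0.06. Endothelial genes rose in 4 of 20 cases, 9 fell and 7 were not called (median -0.11), but with array median scaling 9 rose and 3 fell. Cldn5, of tight junctions, went from 5.18, 5.25 and 5.19 to 2.95, 2.93 and 2.85, a fall of 2.30 ± 0.07. Plvap changed by -1.32 ± 0.08 and Flt1 rose by 1.03 ± 0.08.

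Nerve and Schwann cell genes rose in 7 of 12 cases, 3 fell and 2 were not called (median 0.42). Mbp, of myelin, rose by 1.79 ± 0.06, while another of its probes did not pass at -0.28 ± 0.68. Th, the catecholamine enzyme of sympathetic nerves, rose by 0.92 ± 0.11. Of 10 measured hepatocyte genes 2 rose, 5 fell and 3 were not called (median -1.13, or -0.76 with 2 at bounds). With a slide term 3 of them rose, 2 fell and the median was -0.035. Cyp2e1, which brown fat may also express, rose by 3.49 ± 0.19 and Afp, alpha-fetoprotein, was at least 2.44-fold lower. The Y-linked gene Ddx3y was at 2.32, 2.38 and 2.36 at E18 and at 2.56, 2.30 and 2.52 at 4W, a change of 0.10 ± 0.12, and the Y-linked genes Eif2s3y and Uty did not pass either. Xist, the RNA of the inactive X chromosome, was at -3.07, -2.33 and -4.88 at E18 and not well above background on any 4W array, at least 1.40-fold lower, while its other probe rose by 0.96 with no array of either age well above background. At P10 Xist was at 1.22 and Ddx3y was not well above background on any array.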
